A study of Mus musculus with 6 samples.

Results

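The CD28 family receptors and their ligands were read here as 10 genes, chosen by symbol among the 32227 genes of the count tables: the receptors Pdcd1 (PD-1), Ctla4, Cd28, Icos and Btla, and the ligands Cd274 (PD-L1), Pdcd1lg2 (PD-L2), Cd80, Cd86 and Icosl. All 10 were present in every library. The study profiled mouse CD8+ T cells by PIPseq, a droplet method that tags each captured RNA molecule with a unique molecular identifier (UMI). There were 6 libraries, 1 for each pairing of 3 tissues with 2 genotype labels, so no value below has a replicate. Thymic and splenic cells were enriched with a CD8a+ isolation kit and came from 1 mouse per library, while each tumor library pooled 3 mice and held cells caught with CD8 microbeads from digested B16-OVA melanomas at day 12.

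The control group carried 2 floxed Pdcd1 alleles without Cre and is labelled Pdcd1fl/fl. The other group, labelled Pdcd1 cKO, carried the same floxed alleles and a Cre transgene driven by the E8I enhancer of Cd8a. That enhancer acts in CD8 T cells after positive selection, so cells outside that lineage, and younger thymocytes, keep the gene. All animals were adult mice older than 8 weeks on a C57BL/6 background. The comparison of the labels asks what loss of PD-1 in CD8 T cells changes in each tissue.

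T cells are activated through the antigen receptor together with a costimulatory signal, and the CD28 family supplies or withholds that signal. CD28 and ICOS deliver costimulation, while CTLA-4, PD-1 and BTLA restrain it. CD80 and CD86 are shared by CD28 and CTLA-4, PD-L1 and PD-L2 bind PD-1, ICOSL binds ICOS, and BTLA binds a member of the TNF receptor family instead of a B7 protein. In a tumor, PD-1 and CTLA-4 mark T cells that meet antigen for a long time, and the ligands sit on antigen-presenting cells and on tumor cells that have sensed interferon.

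After a filter on genes, UMIs and mitochondrial share, the thymus libraries held 1067 (labelled Pdcd1fl/fl) and 2635 (labelled Pdcd1 cKO) cells. The spleen libraries held 1478 and 4928 cells, and the tumor libraries held 456 and 561 cells, in the same order. Kept UMIs were 6389966 and 19143524 in thymus, 2220981 and 8923997 in spleen, and 9380835 and 7924590 in tumor. The median cell had 4361 and 5417 UMIs in thymus, 1320.5 and 1615 in spleen, and 13809.5 and 9510.0 in tumor. The filter removed most barcodes of the spleen library labelled Pdcd1fl/fl, which fell from 6929 to 1478, and few elsewhere. No kept barcode was shared between any 2 libraries, and before the filter only the spleen libraries shared any, with 2. Levels below are given as CPM, a gene's share of all UMIs of the cells summed in ppm, with exact 95% Poisson intervals. These intervals, like those of every ratio and share, cover counting error only and say nothing of differences between mice.

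A UMI of Cd8a or Cd8b1 was found in 55.2% and 66.5% of thymic cells, 58.4% and 78.8% of splenic cells, and 75.4% and 91.3% of tumor cells. The T cell check list (Trac, Trbc2, Cd2, Cd247, Lck), led by Trbc2 with all 5 genes present, summed to 2869.5 and 2708 CPM in thymus, 2097 and 3035 in spleen, and 1046.5 and 2074 in tumor. Genes of immature thymocytes (Dntt, Rag1, Ptcra), led by Dntt, summed to 543 and 424 CPM in thymus, and 73.2% and 58.5% of thymic cells held a UMI of them. RNA of immature thymocytes was thus counted in both thymus libraries, at a higher level and in a larger share of cells under the Pdcd1fl/fl label. A UMI in a cell does not show that the cell made it, since no background was measured there. B cell genes, led by Ighm, summed to 150.2 and 100.5 CPM in thymus, 106 and 535 in spleen, and 23.9 and 112 in tumor, with Ms4a1 at 0 in the thymus and spleen libraries labelled Pdcd1fl/fl and in the tumor library labelled Pdcd1 cKO. Granulocyte progenitor genes stood at 68.5 CPM, led by Mpo, in the spleen library labelled Pdcd1 cKO against 1.80 in its partner, where Mpo and Elane were at 0, and did not pass 2.24 CPM in the other libraries. Melanoma genes (Mitf, Sox10, Tyr, Gpnmb, Slc45a2), led by Gpnmb in tumor, summed to 1827 and 1004 CPM there and to at most 10.8 CPM elsewhere, where Sox10 or Slc45a2 was at 0. Macrophage genes, led by Cd68, summed to 58.3 and 92.4 CPM in tumor and at most 10.4 CPM elsewhere, with Ms4a7 at 0 in thymus and spleen. CD4 and regulatory T cell genes, led by Ikzf2, summed to 171 and 256 CPM in thymus and at most 29.8 CPM in the other tissues. Ikzf2 alone gave 597 of 1095 and 3091 of 4902 of the thymic UMIs. NK cell genes reached 53.2 and 114 CPM in tumor and at most 9.97 CPM elsewhere. Tyrobp alone gave 494 of 499 and 895 of 903 of the tumor UMIs, so these sums are not shown to mark NK cells. The dendritic cell list was led by Ccr7 in thymus (154 and 299 CPM) and spleen (336 and 326 CPM), a gene that T cells also express, and by H2-Aa in tumor (364 and 491 CPM). H2-Aa gave 1892 of 3412 and 3492 of 3892 of these tumor UMIs, so the sums alone do not show dendritic cells.

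Within the tumor libraries, cells were sorted by UMI counts alone. T cells had at least 3 UMIs of Cd3d, Cd3e, Cd3g, Cd8a and Cd8b1. Melanoma cells had at least 50 UMIs of Pmel, Mlana, Tyrp1 and Dct, and macrophages at least 10 UMIs of Lyz2, C1qa, C1qb and Csf1r. In the libraries labelled Pdcd1fl/fl and Pdcd1 cKO this gave 290 and 470 T cells, 75 and 10 melanoma cells, 16 and 14 macrophages, 69 and 63 cells that met more than 1 rule (called mixed here), and 6 and 4 that met none. A dendritic cell rule, at least 5 UMIs of Fscn1, Ccl22, Cacnb3, Xcr1, Clec9a and Flt3, was read among cells that met none. It held 0 cells in either library. Genes that the rules did not use followed the classes. Trac stood at 318 and 484 CPM in T cells and 11.3 and 18.6 CPM in melanoma cells, Gpnmb at 37.1 and 27.5 CPM in T cells and 1755 and 1942 CPM in melanoma cells, and Cd68 at 815 and 556 CPM in macrophages. Most mixed cells met only the T cell and melanoma rules (64 and 47). These were deep, with medians of 45876.5 and 38609 UMIs. They had a median of only 4 and 7 UMIs of the T cell rule, against 34 and 38 in T cells. Another 5 and 15 met only the T cell and macrophage rules, with medians of 12071 and 7584 UMIs. In the library labelled Pdcd1 cKO, 1 more mixed cell met all 3 rules. All mixed cells together had medians of 43267 and 33533 UMIs. In all, 74 of 456 and 32 of 561 tumor cells had 2 to 4 UMIs of the T cell rule, just outside or just inside its limit.

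Pdcd1 encodes PD-1, the receptor that the floxed allele targets. In thymus it had 12 UMIs under the Pdcd1fl/fl label, 1.88 CPM (interval 0.970 to 3.28), and 131 UMIs under the Pdcd1 cKO label, 6.84 CPM (5.72 to 8.12). In spleen it had 1 UMI, 0.450 CPM (0.0114 to 2.51), against 104 UMIs, 11.7 CPM (9.52 to 14.1). In both tissues the library labelled as the knockout therefore held more Pdcd1 RNA than its control, with intervals that did not overlap. The log2 ratio of labelled Pdcd1 cKO over labelled Pdcd1fl/fl was 1.87 (1.01 to 2.85) in thymus and 4.69 (2.18 to 10.01) in spleen. Under a stricter cell filter the splenic ratio was 1.59 with an interval from -1.002 to 6.94, so the single UMI of the control library decided its size. Before any filter the 2 spleen libraries held 2 and 104 Pdcd1 UMIs. These UMIs lay mostly in cells with a UMI of Cd8a or Cd8b1, namely 9 of 12 and 116 of 131 in thymus, and 89 of 104 in the spleen library labelled Pdcd1 cKO. Pdcd1 RNA thus went against the genotype labels in thymus and spleen, and directions between the labels are stated by label. The exons that the floxed alleles lose were not known here, and the cause was not tested.

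The tumor libraries held far more Pdcd1: 717 UMIs, 76.4 CPM (70.9 to 82.2), under the Pdcd1fl/fl label and 808 UMIs, 102 CPM (95.1 to 109), under the Pdcd1 cKO label. T cells carried 706 and 800 of these UMIs. Within T cells the level was 182 CPM (169 to 196) under the Pdcd1fl/fl label and 152 CPM (141 to 163) under the Pdcd1 cKO label. The order of the 2 tumor libraries thus turned with the cells summed, from a log2 ratio of 0.42 (0.27 to 0.56) over all cells to -0.26 (-0.41 to -0.11) over T cells. T cells were 290 of 456 and 470 of 561 cells in these libraries. The lower T cell level under the Pdcd1 cKO label was a 1.20-fold difference, and Pdcd1 remained among the detected genes of those cells. The T cells of the 2 libraries differed in make-up, with a Ccr7 UMI in 179 of 290 and 81 of 470. Within T cells with Ccr7 the Pdcd1 ratio was -0.46 (-0.77 to -0.15), and within those without it -0.53 (-0.72 to -0.33), a comparison chosen after seeing the data. With each cell thinned to 1000 UMIs, 14.1% (exact Clopper-Pearson interval 10.3 to 18.7) and 10.9% (8.19 to 14.0) of tumor T cells held a Pdcd1 UMI. None of 75 melanoma cells of the library labelled Pdcd1fl/fl did, with an exact upper limit of 4.80%, and before thinning T cells and melanoma cells of that library had medians of 11063 and 26101 UMIs. The thinned shares in thymus (0.469% and 0.987%) and spleen (0.0677% and 1.20%) were under that limit. With only 75 cells of another library behind it, the limit cannot tell those shares from background. By level, the same melanoma cells held 0.907 CPM (0.110 to 3.28; 2 UMIs). Under the Pdcd1 cKO label, the intervals of thymus (5.72 to 8.12 CPM) and spleen (9.52 to 14.1 CPM) lay above this. Those under the Pdcd1fl/fl label overlapped it.

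**Figure D1:**
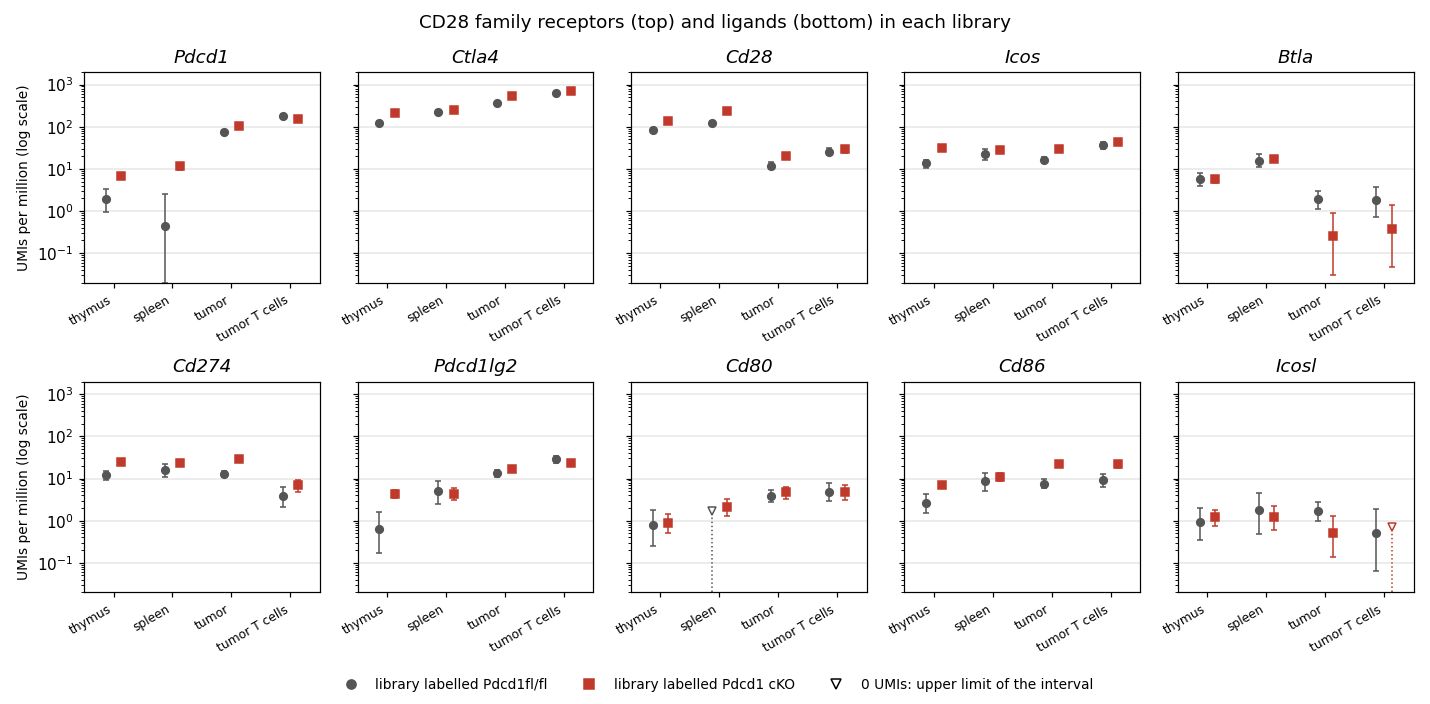
CPM (log scale) of each receptor and ligand gene in the 6 libraries and in the T cells of the tumor libraries; circles are libraries labelled Pdcd1fl/fl, squares libraries labelled Pdcd1 cKO, bars exact 95% Poisson intervals, and open triangles the upper limit where no UMI was counted. Pdcd1 and Ctla4 were highest in tumor T cells, Cd28 and Btla were highest in spleen, and Pdcd1 was higher under the Pdcd1 cKO label in thymus and spleen.

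Ctla4 encodes the inhibitory receptor that competes with CD28 for CD80 and CD86. It had 799 UMIs in thymus under the Pdcd1fl/fl label, 125 CPM (117 to 134), and 3988 UMIs under the Pdcd1 cKO label, 208 CPM (202 to 215). Spleen held 503 UMIs, 226 CPM (207 to 247), and 2240 UMIs, 251 CPM (241 to 262). Tumor T cells held 2408 UMIs, 620.5 CPM (596 to 646), and 3627 UMIs, 688 CPM (666 to 711). Ctla4 thus rose from thymus through spleen to tumor T cells under either label, although the splenic intervals overlapped between labels. The ratio between labels was 0.74 (0.63 to 0.85) in thymus, 0.15 (0.01 to 0.29) in spleen and 0.15 (0.07 to 0.22) in tumor T cells, all within 2-fold.

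Many Ctla4 UMIs were also counted outside the T cell class, where Pdcd1 had few. Melanoma cells of the tumor library labelled Pdcd1fl/fl held 416 UMIs, 189 CPM (171 to 208), macrophages held 26, 183 CPM (119 to 268), and mixed cells held 592, 191 CPM (176 to 207). In the library labelled Pdcd1 cKO the same classes held 37 UMIs (229 CPM, 161 to 315), 17 UMIs (158 CPM, 91.8 to 252) and 505 UMIs (216 CPM, 197 to 235). These levels overlapped among the 3 classes and lay within the range of the thymus and spleen libraries. The few cells that met no rule stood higher, at 415 CPM (254 to 641; 20 UMIs) and 503 CPM (312 to 769.6; 21 UMIs). The melanoma level of Ctla4 was 30.4% (27.6 to 33.5) and 33.3% (23.4 to 45.9) of its T cell level under the labels Pdcd1fl/fl and Pdcd1 cKO. For genes of T cells in the same comparison it was 3.57% and 3.83% (Trac), 2.10% and 3.47% (Trbc2), 0.540% and 1.83% (Cd3g), and for Ccl5 14.9% and 12.6%. In melanoma cells Ctla4 was thus above each of these genes. In macrophages it was 29.4% (19.2 to 43.1) and 22.9% (13.3 to 36.7), against 9.75% (4.21 to 19.2) and 35.1% (27.7 to 43.8) for Ccl5, so that order did not hold in every class. With cells thinned to 1000 UMIs, 50.7% (44.8 to 56.6) and 51.5% (46.9 to 56.1) of tumor T cells held a Ctla4 UMI. Melanoma cells of the library labelled Pdcd1fl/fl gave 12.0% (5.64 to 21.6), thymic cells 11.7% and 19.5%, and splenic cells 20.03% and 22.3%. The thymic and splenic shares lay inside the interval of that melanoma share or just above it, and those of tumor T cells lay well above it. No level of background was measured in the thymus and spleen libraries. The gene model of Ctla4 holds, on its own strand, the processed pseudogene Rpl18-ps1 of a ribosomal protein, at positions 60940057 to 60940581 of chromosome 1 on GRCm39. It lies outside the canonical transcript and has no entry of its own in the count tables. How many UMIs listed for Ctla4 came from there was not tested.

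Cd28 encodes the founding costimulatory receptor of the family. Its thymic levels were 85.1 CPM (78.1 to 92.6; 544 UMIs) under the Pdcd1fl/fl label and 135 CPM (129 to 140) under the Pdcd1 cKO label. Spleen gave 124 CPM (110.04 to 140) and 238 CPM (228 to 249), and tumor T cells gave 25.8 CPM (21.0 to 31.3; 100 UMIs) and 28.8 CPM (24.4 to 33.8). Cd28 was thus highest in spleen and lowest in tumor T cells under either label, where Pdcd1 was highest. Its ratio between labels was 0.66 (0.53 to 0.80) in thymus, 0.94 (0.76 to 1.13) in spleen and 0.16 (-0.21 to 0.54) in tumor T cells. In the tumor, 90.1% and 93.8% of Cd28 UMIs were in T cells, and macrophages held none.

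Icos encodes the inducible costimulator, which appears on T cells after activation. It stood at 13.5 CPM (10.8 to 16.6; 86 UMIs) and 31.8 CPM (29.3 to 34.4; 609 UMIs) in thymus under the labels Pdcd1fl/fl and Pdcd1 cKO. Spleen gave 22.1 CPM (16.3 to 29.2) and 27.6 CPM (24.2 to 31.2), and tumor T cells gave 36.1 CPM (30.3 to 42.6) and 43.6 CPM (38.2 to 49.6). Icos was highest in tumor T cells under either label, and the labels differed past their intervals in thymus, with a ratio of 1.24 (0.91 to 1.58). They also did so over all tumor cells, at 15.99 CPM (13.5 to 18.8) and 30.2 CPM (26.5 to 34.2), a ratio of 0.92 (0.61 to 1.22), but not in tumor T cells, at 0.27 (-0.04 to 0.59). The splenic ratio of 0.32 (-0.13 to 0.79) turned to -0.81 (-1.64 to 0.13) under the stricter cell filter. T cells held 93.3% and 96.2% of the tumor UMIs of Icos.

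Btla encodes an inhibitory receptor of resting lymphocytes. Thymus gave 5.63 CPM (3.95 to 7.80; 36 UMIs) and 5.64 CPM (4.63 to 6.81; 108 UMIs), and spleen gave 15.8 CPM (11.0 to 21.9) and 17.5 CPM (14.8 to 20.4). The tumor libraries held 18 UMIs, 1.92 CPM (1.14 to 3.03), under the Pdcd1fl/fl label and 2 UMIs, 0.252 CPM (0.0306 to 0.912), under the Pdcd1 cKO label. Btla was thus highest in spleen, and the labels overlapped in thymus and spleen but not in tumor. The thymic ratio was 0.00 (-0.55 to 0.59) and changed sign with the cells summed. The tumor ratio of -2.93 (-6.08 to -0.86) rested on few molecules. Of the 18 UMIs, 9 were in cells that met the melanoma rule and 5 of them in 1 cell, while T cells held 7 and 2 UMIs and fell under the minimum for a ratio.

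Cd274 encodes PD-L1, the ligand of PD-1 that interferon induces on many cell types. In thymus it had 76 UMIs, 11.9 CPM (9.37 to 14.9), and 481 UMIs, 25.1 CPM (22.9 to 27.5), under the labels Pdcd1fl/fl and Pdcd1 cKO. Spleen gave 35 UMIs, 15.8 CPM (11.0 to 21.9), and 206 UMIs, 23.1 CPM (20.04 to 26.5), and tumor gave 121 UMIs, 12.9 CPM (10.7 to 15.4), and 233 UMIs, 29.4 CPM (25.7 to 33.4). The level was higher under the Pdcd1 cKO label in all 3 tissues, past the intervals in thymus and tumor, with ratios of 1.08 (0.73 to 1.45), 0.55 (0.03 to 1.11) and 1.19 (0.87 to 1.52). Among thymic cells with a UMI of Cd8a or Cd8b1 the ratio was 0.96 (0.54 to 1.40), no longer past 2-fold. Within the tumor most of it was not in T cells, which held 15 of 121 and 36 of 233 UMIs. Macrophages had the highest level, 84.3 CPM (43.5 to 147; 12 UMIs) and 287 CPM (195 to 408; 31 UMIs), against 10.9 CPM (6.97 to 16.2) and 18.6 CPM (3.83 to 54.2; 3 UMIs) in melanoma cells and 3.87 CPM (2.16 to 6.38) and 6.83 CPM (4.78 to 9.45) in T cells. Mixed cells held 68 and 162 UMIs, 21.9 CPM (17.0 to 27.8) and 69.2 CPM (59.0 to 80.7), the largest number of molecules in any class, with up to 17 and 23 in 1 cell. Of these UMIs, 4 and 57 were in the 5 and 15 mixed cells that met only the T cell and macrophage rules. Mixed cells of only the T cell and melanoma rules stood at 21.0 CPM (16.2 to 26.8) and 49.4 CPM (40.2 to 59.9). The levels ran in the order macrophage, melanoma cell, T cell under both labels. Under the Pdcd1 cKO label the ratio of melanoma cells over T cells was 1.44 (-0.90 to 3.10), so that step was not resolved there. Only in macrophages and mixed cells did the label intervals not overlap. All cells that met the melanoma rule, mixed ones included, gave 16.8 CPM (13.4 to 20.6) and 47.2 CPM (38.8 to 57.0). With cells thinned to 1000 UMIs, 12.5% (1.55 to 38.3) and 35.7% (12.8 to 64.9) of macrophages held a Cd274 UMI. Tumor T cells gave 0 of 290, with an exact upper limit of 1.26%, and 0.851% (0.232 to 2.16), where macrophages had medians of 8627 and 6424.5 UMIs and T cells 11063 and 9111.

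Pdcd1lg2 encodes PD-L2, the other PD-1 ligand, best known from dendritic cells and macrophages. Thymus held 4 UMIs, 0.626 CPM (0.171 to 1.60), and 81 UMIs, 4.23 CPM (3.36 to 5.26), a ratio of 2.76 (1.35 to 4.67). Spleen held 11 UMIs, 4.95 CPM (2.47 to 8.86), and 39 UMIs, 4.37 CPM (3.11 to 5.97). Of those 11 UMIs, 7 were in 1 cell, and the splenic ratio of -0.18 (-1.17 to 0.93) was 0.37 (-0.44 to 1.22) over every deposited barcode and -2.02 (-3.28 to -0.62) under the stricter filter. In tumor, 112 of 125 and 125 of 136 UMIs were in T cells, at 28.9 CPM (23.8 to 34.7) and 23.7 CPM (19.7 to 28.2). Most Pdcd1lg2 molecules counted in these CD8-enriched libraries were thus in T cells. Macrophages held 0 UMIs (upper limit 25.9 CPM) and 1 UMI (9.27 CPM, 0.235 to 51.6). Their ratio over T cells had an upper limit of -0.13 under the Pdcd1fl/fl label. Under the Pdcd1 cKO label it spanned 0 (-6.67 to 1.15), too few UMIs to set macrophages apart from T cells. Cells that met no rule held 3 and 2 UMIs (62.3 and 47.95 CPM). Melanoma cells of the library labelled Pdcd1fl/fl held 3 UMIs at 1.36 CPM (0.281 to 3.98). The ratio between labels was -0.28 (-0.66 to 0.10) in tumor T cells and 0.37 (0.00 to 0.73) over all tumor cells, so its sign turned with the cells summed.

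Cd86 encodes a ligand of CD28 and CTLA-4 on antigen-presenting cells. Thymus held 17 UMIs, 2.66 CPM (1.55 to 4.26), and 133 UMIs, 6.95 CPM (5.82 to 8.23), and spleen held 19 UMIs, 8.55 CPM (5.15 to 13.4), and 98 UMIs, 11.0 CPM (8.92 to 13.4). Tumor held 71 UMIs, 7.57 CPM (5.91 to 9.55), and 177 UMIs, 22.3 CPM (19.2 to 25.9). The labels differed past their intervals in thymus and tumor, where the ratios were 1.38 (0.65 to 2.21) and 1.56 (1.16 to 1.98), and not in spleen, where 0.36 (-0.36 to 1.15) turned to -0.36 under the stricter filter. Macrophages had the highest level, 119 CPM (69.5 to 191; 17 UMIs) and 130 CPM (70.9 to 218; 14 UMIs), with intervals that overlapped widely. T cells stood at 9.02 CPM (6.28 to 12.5; 35 UMIs) and 22.0 CPM (18.2 to 26.4; 116 UMIs), a ratio of 1.29 (0.73 to 1.88). All cells that met the melanoma rule, mixed ones included, gave 1.33 CPM (0.536 to 2.75; 7 UMIs) and 10.5 CPM (6.73 to 15.6; 24 UMIs), and mixed cells 4.83 CPM (2.70 to 7.97) and 17.5 CPM (12.6 to 23.8). Of those 7 and 24 UMIs, 5 and 21 were in mixed cells of only the T cell and melanoma rules. These made up 64 of 139 and 47 of 58 cells that met the melanoma rule. Unmixed melanoma cells held 2 and 3 UMIs, 0.907 CPM (0.110 to 3.28) and 18.6 CPM (3.83 to 54.2). Those intervals did not overlap, but 2 of the 3 UMIs were in 1 cell. The few UMIs of macrophages did not resolve a difference. The tumor difference in Cd86 was therefore present among cells of the T cell rule, though not shown to be limited to them. Among the same T cells the NK cell list stood at 12.1 and 25.4 CPM, with Tyrobp giving 46 of 47 and 128 of 134 UMIs. The macrophage list stood at 10.8 and 14.6 CPM, and the share with Ccr7 differed. The Cd86 ratio is thus not shown to be one of unchanged T cells.

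Cd80, the other ligand of CD28 and CTLA-4, was sparse. It had 5 and 17 UMIs in thymus, 0 and 19 in spleen, and 37 and 37 in tumor, or 0.782 and 0.888 CPM, 0 (upper limit 1.66) and 2.13 CPM, and 3.94 and 4.67 CPM. Tumor libraries were above thymus libraries under either label, and no ratio between labels passed 2-fold among those tested. T cells held 19 of 37 and 25 of 37 tumor UMIs, at 4.90 CPM (2.95 to 7.65) and 4.74 CPM (3.07 to 6.999). The ratio was 0.24 (-0.45 to 0.94) over all tumor cells and -0.05 (-0.97 to 0.90) in T cells. Macrophages held 3 and 2 UMIs, 21.1 CPM (4.34 to 61.6) and 18.5 CPM (2.24 to 66.9).

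Icosl, the ligand of ICOS, was the sparsest ligand over the 6 libraries, with 6 and 23 UMIs in thymus, 4 and 11 in spleen, and 16 and 4 in tumor. The tumor levels were 1.71 CPM (0.975 to 2.77) and 0.505 CPM (0.138 to 1.29), a ratio of -1.76 (-3.80 to -0.12). Cells that met the melanoma rule held 14 of 16 and 4 of 4 of these UMIs, and T cells held 2 and 0. There were 139 and 58 such cells in the libraries labelled Pdcd1fl/fl and Pdcd1 cKO, and their Icosl levels overlapped, at 2.67 CPM (1.46 to 4.47) and 1.75 CPM (0.477 to 4.48).

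**Figure D2:**
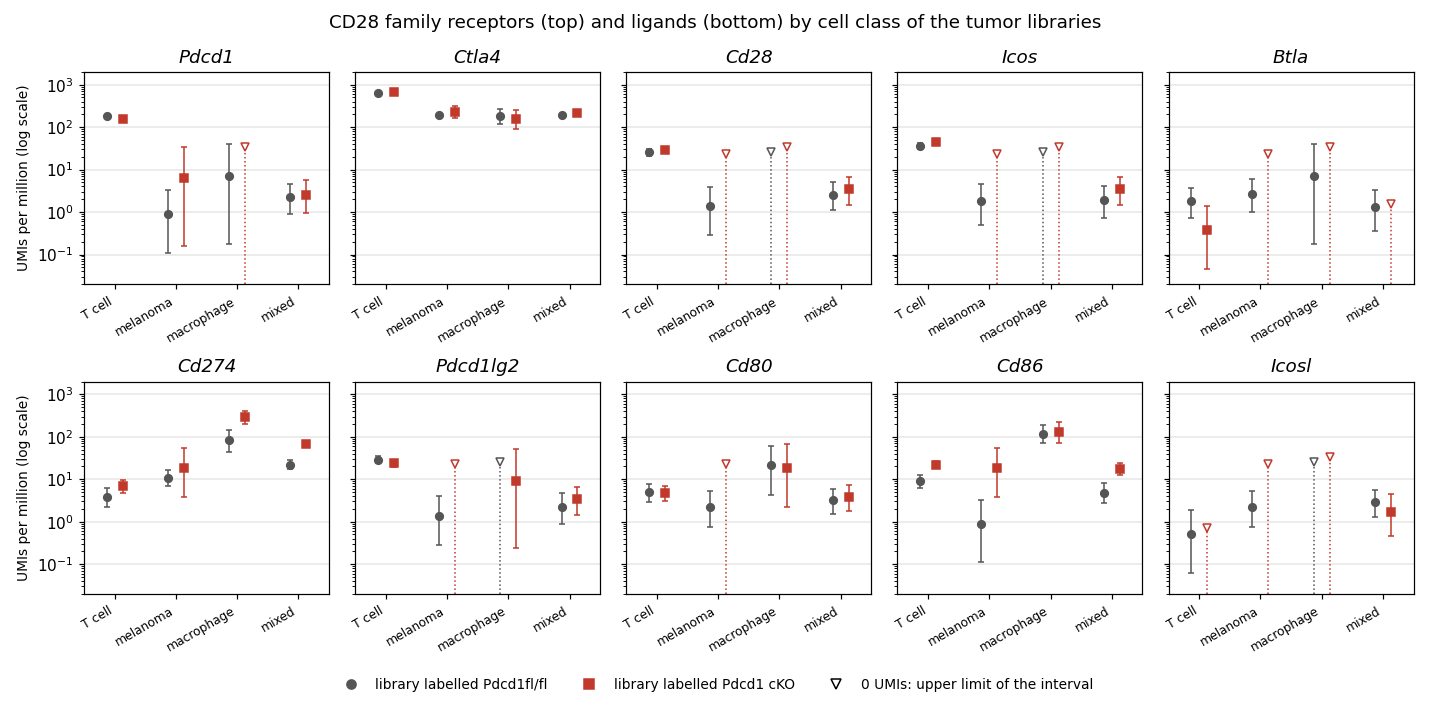
CPM (log scale) of each gene in the T cells, melanoma cells, macrophages and mixed cells of the tumor libraries; circles are the library labelled Pdcd1fl/fl, squares the library labelled Pdcd1 cKO, bars exact 95% Poisson intervals, and open triangles the upper limit where no UMI was counted. Pdcd1 was highest in T cells, Cd274 and Cd86 were highest in macrophages, and Ctla4 stood between 158 and 229 CPM in melanoma cells, macrophages and mixed cells.

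The tumor classes were also compared gene by gene, each class against the T cells of its own library, counting a gene with at least 20 UMIs over both sides as called when its ratio passed 2-fold. In macrophages of the library labelled Pdcd1fl/fl, 3 of 8 members tested were higher (Cd274, Cd80, Cd86) and 2 were lower (Pdcd1, Ctla4), where 32.8% of 8099 genes were higher and 10.6% lower. Their ratios over T cells were 4.45 (3.22 to 5.64) for Cd274, 3.73 (2.80 to 4.60) for Cd86 and, on 3 UMIs, 2.11 (-0.29 to 3.87) for Cd80. The same 3 genes were higher in macrophages of the library labelled Pdcd1 cKO (29.8% of 9247 genes), at 5.39 (4.65 to 6.13) for Cd274, 2.56 (1.64 to 3.36) for Cd86 and 1.97 (-1.16 to 3.97) for Cd80. The count of higher members was thus near the background. Among the 7076 and 7118 genes with a ratio, 3.07% and 1.73% were at or above Cd274, 4.64% and 10.4% at or above Cd86, and 15.96% and 18.1% at or above Cd80. Lower there (8.84% of genes) were Ctla4 at -2.13 (-2.91 to -1.45), Pdcd1lg2 at -1.36 (-6.67 to 1.15), whose 1 UMI and interval across 0 do not settle its direction, and Pdcd1, which had 0 UMIs and was at least 5.46-fold lower, taking a floor of 3 counts over the class (interval limit -2.15). Cd28, at 0 in macrophages of either library, could not be resolved, because so few macrophages leave a floor close to the T cell level. Icos was also at 0 in both, with interval limits of -0.46 and -0.34 under the labels Pdcd1fl/fl and Pdcd1 cKO. It was thus lower than in T cells but not shown to be past 2-fold.

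Melanoma cells of the library labelled Pdcd1fl/fl were lower than T cells in 7 of 8 members tested, where 10.9% of 10712 genes were lower. The ratios were -7.65 (-10.70 to -5.79; 2 UMIs) for Pdcd1, -4.24 (-6.55 to -2.65; 3 UMIs) for Cd28, -4.31 (-6.21 to -2.93) for Icos, -4.41 (-6.71 to -2.82; 3 UMIs) for Pdcd1lg2, -3.31 (-6.41 to -1.35; 2 UMIs) for Cd86, -1.72 (-1.87 to -1.57) for Ctla4 and -1.11 (-2.89 to 0.36) for Cd80. The remaining member, Cd274, was the only one higher, at 1.49 (0.50 to 2.53), where 43.1% of genes were higher. Only 10 melanoma cells were left in the library labelled Pdcd1 cKO. There 3 of 8 members were lower (9.61% of 9362 genes), namely Pdcd1 at -4.62 (-9.92 to -2.13; 1 UMI), Ctla4 at -1.59 (-2.10 to -1.12) and Icos, at 0, at least 2.35-fold lower by the same floor. The interval limit of Icos was -0.92, so that call holds by the floor and not by the interval. Cd274 was again the only one higher, at 1.44 (-0.90 to 3.10; 3 UMIs), where 34.7% of genes were. The 4 called members became 8 with higher class limits, and 8 when the T cell rule was waived, so this count depends on the class rules. The receptors were thus lower in melanoma cells than in T cells wherever the counts could resolve it, Btla apart, which had too few UMIs.

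Between the genotype labels, 5 of 10 members in thymus were higher under the Pdcd1 cKO label (8.75% of 14381 genes) and 0 lower (5.33%). These were the receptors Pdcd1 and Icos and the ligands Cd274, Pdcd1lg2 and Cd86. The median ratio was 0.91 over the members and -0.02 over all genes tested. In these libraries the share of cells with a UMI of immature thymocyte genes (73.2% and 58.5%) moved with the label. So did the sum of CD4 and regulatory T cell genes, most of it Ikzf2. Without cells that held a UMI of Dntt, Rag1 or Ptcra, 3 members were still called, Pdcd1, Pdcd1lg2 and Cd86, with Pdcd1 resting on 1 UMI under the Pdcd1fl/fl label. Icos and Cd274 were no longer called, at 0.90 and 0.73.

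Spleen showed 1 of 8 tested members called higher, Pdcd1, against 9.18% of 12272 genes, and 0 lower against 2.83%, which is close to the background share. The member median was 0.34 and that of all genes 0.17. Cd28 came nearest the limit at 0.94. Cd80 and Icosl had under 20 UMIs. B cell and granulocyte progenitor genes stood higher under the Pdcd1 cKO label, and their part in these values was not tested. Of the B cell UMIs in spleen, Ighm alone gave 209 of 236 and 4636 of 4775 under the labels Pdcd1fl/fl and Pdcd1 cKO.

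In tumor, 2 of 10 members were higher (6.78% of 14087 genes), the ligands Cd274 and Cd86, and 2 were lower (11.0%), Btla and Icosl. The member median was 0.47 and that of all genes -0.21. Cells that met the melanoma rule were 139 of 456 and 58 of 561, so the cells summed changed with the label. Over T cells alone, 1 of 8 members was called, Cd86 (8.86% of 10854 genes higher, 5.09% lower), and the medians were 0.16 and 0.07. The receptors of tumor T cells thus differed little between the labels, with ratios from -0.26 for Pdcd1 to 0.27 for Icos, Btla apart, which had 7 and 2 UMIs. Scaling by the median of ratios moved the median gene from -0.02 to 0.14 in thymus and from -0.21 to -0.09 in tumor, and a total without mitochondrial, ribosomal protein and Malat1 UMIs moved it to 0.16 in thymus and from 0.17 to 0.03 in spleen. Neither scaling changed the sign of a member's ratio. The median of ratios added Icos to the called members of tumor, at 1.04.

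**Figure D3:**
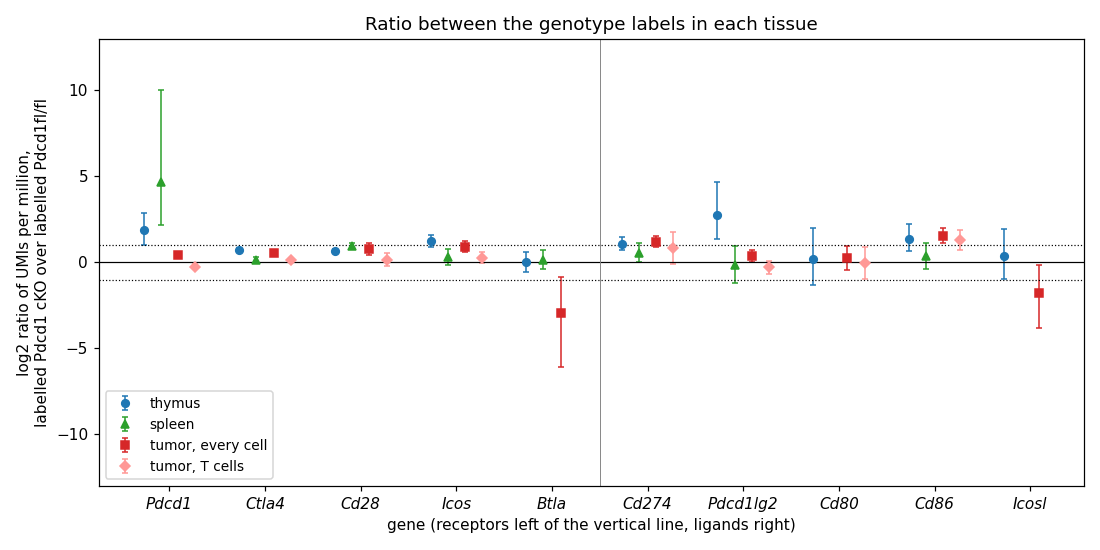
Log2 ratio of CPM, labelled Pdcd1 cKO over labelled Pdcd1fl/fl, for each gene in thymus, spleen, tumor and the T cells of the tumor; bars are exact 95% conditional intervals, dotted lines mark a 2-fold ratio, and genes with under 20 UMIs over both libraries are left out. Pdcd1 lay above 0 in thymus (1.87) and spleen (4.69), against the labels, and at -0.26 in tumor T cells.

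A list of 30 other genes of these pathways was read the same way. In thymus 2 of 29 tested were higher and 1 lower, in spleen 3 of 28 higher and 0 lower, in tumor 3 of 29 higher and 1 lower, and in tumor T cells 2 of 26 higher and 0 lower, all near the background shares given above. Among partners of BTLA, Tnfrsf14 (HVEM, its ligand) had 7 and 48 UMIs in thymus, a ratio of 1.19 (0.04 to 2.58), and under 20 UMIs in spleen and tumor. Cd160, another receptor of HVEM, had 39 and 466 UMIs in spleen, 17.6 and 52.2 CPM, a ratio of 1.57 (1.10 to 2.08), and 84.0 and 90.1 CPM in tumor T cells, a ratio of 0.10 (-0.11 to 0.31). Tnfsf14 (LIGHT), a further HVEM ligand, was higher in thymus at 1.14 (-0.23 to 2.85; 5 and 33 UMIs) and in spleen at 1.58 (0.60 to 2.75; 9 and 108 UMIs), and at -0.47 (-1.70 to 0.69) in tumor.

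Of the other B7 family genes, Vsir (VISTA) stood at 29.3 and 33.1 CPM in thymus, 81.9 and 103 in spleen and 8.74 and 24.7 in tumor, with a tumor ratio of 1.501 (1.12 to 1.89) and 0.81 (0.36 to 1.28) in tumor T cells. Vtcn1 gave ratios of 0.41 in thymus, -0.84 (-1.29 to -0.37) in spleen and 0.96 (0.36 to 1.57) in tumor. Cd276 had at most 2 UMIs in thymus and spleen and 39 and 19 in tumor (-0.79, -1.67 to 0.03). Rgmb, a partner of PD-L2, gave -0.40, -0.61 and -0.66 in the 3 tissues. None of these B7 genes was called in the same direction in more than 1 tissue. Among the signalling and trafficking genes of the list the highest and lowest ratios were Malt1, a protease downstream of the antigen receptor and CD28, at 0.89 (0.65 to 1.14) and the adaptor subunit Ap2m1 at -1.07 (-1.22 to -0.92) in thymus. In spleen Ap2m1 was instead the highest of them, at 1.08 (0.75 to 1.43). In tumor Malt1 was highest at 3.26 (2.88 to 3.67; 62 and 502 UMIs), but 399 of those 502 UMIs were in 1 cell, and Cmtm4, a stabiliser of PD-L1, was lowest at -1.11 (-1.55 to -0.69). T cells held 14 of the 166 and 22 of the 65 Cmtm4 UMIs, and within them its ratio was 0.21 (-0.82 to 1.29). The same T cell put Malt1 highest within tumor T cells, at 3.21 (2.71 to 3.75), where 35 of 470 cells held a Malt1 UMI under the Pdcd1 cKO label and 30 of 290 under the Pdcd1fl/fl label. There Lcp2, an adaptor of antigen receptor signalling, was lowest at -0.58 (-0.97 to -0.19).

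Within each thymus library, cells with a UMI of Dntt, Rag1 or Ptcra were set against cells without, a comparison chosen after seeing the data. Under the Pdcd1fl/fl label, Icos (9.32 against 32.7 CPM, -1.81, -2.46 to -1.15), Btla (-1.73, -2.76 to -0.67) and Cd274 (-1.10, -1.82 to -0.34) were lower in the cells with such a UMI, 3 of 5 members tested against 10.5% of 10848 genes. Pdcd1 had too few UMIs there for a call, with 11 in these cells and 1 in the others (2.09 against 0.884 CPM, 1.24, -1.54 to 6.67). Under the Pdcd1 cKO label, Pdcd1 (4.68 against 12.0 CPM, -1.36, -1.88 to -0.84), Icos (-1.63, -1.87 to -1.40), Btla (-1.90, -2.49 to -1.32) and Cd86 (-2.03, -2.56 to -1.50) were lower, 4 of 9 against 7.31% of 13715. No member tested was called higher under either label, where 7.97% and 10.8% of genes were. Icos and Btla were therefore lower in cells with such a UMI in both libraries, 2 of the 5 members tested in both, where 8.02% of 10818 genes passed 2-fold the same way in both.

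Ccl5, a chemokine of memory and effector CD8 cells, gave another split, with at least 2 UMIs against 0. It set 156 against 719 and 729 against 1216 cells apart in thymus, and 1027 against 206 and 4502 against 112 in spleen. Most splenic cells were thus on the positive side. In tumor, melanoma cells held Ccl5 at 14.9% and 12.6% of its T cell level. The split is therefore not shown to separate memory or effector cells from others. No member passed 2-fold in the same direction in both libraries of a tissue, where 1.21% of 10260 genes did in thymus and 2.22% of 7034 in spleen. In the thymus library labelled Pdcd1 cKO, Pdcd1 stood at 16.6 CPM in Ccl5-positive and 3.08 CPM in Ccl5-negative cells, a ratio of 2.43 (1.78 to 3.13), where 2.98% of 12870 genes were higher. The thymus library labelled Pdcd1fl/fl held 2 and 10 Pdcd1 UMIs in these classes, 2.44 and 2.39 CPM, too few for a call. Thymic Pdcd1 under the Pdcd1 cKO label was thus concentrated in Ccl5-positive cells.

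Tumor T cells were set against the splenic cells of the same label, also a comparison chosen after seeing the data and one in which tissue, animals and preparation changed together. Pdcd1 was higher at 8.66 (6.18 to 13.96; 1 UMI in spleen) and 3.70 (3.41 to 4.01) under the labels Pdcd1fl/fl and Pdcd1 cKO. Ctla4 was higher at 1.45 (1.31 to 1.60) and 1.45 (1.38 to 1.53), and Pdcd1lg2 at 2.54 (1.65 to 3.59) and 2.44 (1.91 to 2.997). Lower were Cd28 at -2.27 (-2.61 to -1.93) and -3.05 (-3.29 to -2.81), Btla at -3.13 (-4.54 to -1.94) and -5.53 (-8.58 to -3.65; 2 UMIs in tumor), and Cd274 at -2.03 (-3.01 to -1.12) and -1.76 (-2.31 to -1.24). Under the Pdcd1fl/fl label this made 3 of 8 members higher (16.1% of 10247 genes) and 3 lower (41.4%), and under the Pdcd1 cKO label 5 of 9 higher (14.1% of 13159 genes) and 3 lower (43.7%), with Cd80 and Cd86 added. These 6 of the 8 members tested under both labels moved the same way past 2-fold, where 45.6% of 10136 genes did: Pdcd1, Ctla4 and Pdcd1lg2 up, Cd28, Btla and Cd274 down. The splenic side was not limited to T cells, and B cell and granulocyte progenitor genes were counted in it. Against the 945 of 1478 and 4155 of 4928 splenic cells that met the T cell rule, these 6 genes still passed 2-fold the same way, with Btla at -2.93 (-4.41 to -1.65) and -5.53 (-8.59 to -3.65) and Cd274 at -1.97 (-3.01 to -0.97) and -1.82 (-2.38 to -1.299). Cd86 under the Pdcd1 cKO label did not, at 0.93 (0.52 to 1.34).

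Tumor T cells were further split by UMIs of Pdcd1, of Mki67 and Top2a, of Ccr7 or of Cd274, again after seeing the data. Apart from the gene that made a split, no member passed 2-fold in the same direction in both libraries, out of 5 tested in the Pdcd1 split and 6 in each other split. The shares of all genes that did were 1.55% (Pdcd1), 2.37% (Mki67 and Top2a), 1.81% (Ccr7) and 1.28% (Cd274). Icos had a higher level in Pdcd1-positive cells of the library labelled Pdcd1fl/fl, at 40.7 against 20.4 CPM (1.00, 0.28 to 1.80), and less so in the library labelled Pdcd1 cKO (0.24, -0.19 to 0.69). Pdcd1 was lower in cells with a UMI of Ccr7, a homing receptor of naive and memory cells, at 151 against 233 CPM (-0.62, -0.84 to -0.40) and 110.4 against 162 CPM (-0.55, -0.85 to -0.26).

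Across the 12 groups of at least 50 cells made by library and class, the genes with a level most like each of 5 members were ranked by Pearson r over 12855 genes, as a description of groups that share libraries. Pdcd1 was most like Perp (0.962), Sdf4, Nrn1, Gldc and Cdkn2a, and Ctla4 most like Vmp1 (0.965), Bcl2a1a, Gzmb, Tnfrsf4 and Pla1a. For Icos these were Cd27 (0.964), Mettl23, Cd226, H4c17 and AI467606, and for Cd28 they were Prkch (0.990), Sytl3, Grk2, Ptprc and Ptk2b. Cd274 was most like Gbp9 (0.903), Gbp8, C130026I21Rik, Herc6 and Gbp4.

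Some members are neighbours in the genome (GRCm39). Cd28 (ENSMUSG00000026012, 60755959 to 60812518), Ctla4 (ENSMUSG00000026011, 60926159 to 60954991) and Icos (ENSMUSG00000026009, 61017086 to 61039479) lie side by side on the plus strand of chromosome 1, and Pdcd1 (ENSMUSG00000026285, 93966027 to 93980312) lies on its minus strand. Cd86 (ENSMUSG00000022901, 36424044 to 36486443, minus), Cd80 (ENSMUSG00000075122, 38275923 to 38316697, plus) and Btla (ENSMUSG00000052013, 45044475 to 45078033, plus) are on chromosome 16. Cd274 (ENSMUSG00000016496, 29344529 to 29365495) and Pdcd1lg2 (ENSMUSG00000016498, 29388319 to 29448882) are neighbours on the plus strand of chromosome 19, and Icosl (ENSMUSG00000000732, 77905136 to 77919747, plus) is on chromosome 10. Neighbours did not always move together: Cd28 and Ctla4 moved in opposite directions between spleen and tumor T cells, as did Cd274 and Pdcd1lg2. Ctla4 and Icos were both higher in tumor T cells, Icos at 0.71 (0.23 to 1.21) and 0.66 (0.40 to 0.93), within 2-fold. Genes on the opposite strand overlap Cd80 (Timmdc1), Cd274 (Plgrkt, Gm36043) and Pdcd1lg2 (A930007I19Rik) and are listed apart in the count tables, so how reads in the shared stretch were assigned is uncertain.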

How the data were processed

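The deposited files hold raw UMI counts per gene and barcode, which the authors made with the PIPseq pipeline on GRCm39; the annotation release was not stated. Kept barcodes had 500 or more genes, 1000 or more UMIs, and no more than 20% of UMIs from mitochondrial genes. No doublet caller was run, and tumor cells that met more than 1 class rule were kept apart as mixed. Counts were summed over cells and divided by their total. With 1 library per group no test was made. Ratios carry exact conditional binomial intervals, and a gene was called past 2-fold with at least 20 UMIs over both sides. A side at 0 was set to 3 counts over the group, and no ratio was given where that floor reached the other side. Coordinates came from GENCODE vM39. The named genes were the 10 members, a list of 30 pathway genes chosen by role (its BTLA partners and B7 genes, and the highest and lowest of the rest), and the marker lists. A few genes of the planned lists are not reported here, and the counts and sums leave them out. Members and lists were chosen with earlier results of these data known. The calculation was tested on simulated data. Python 3.11.15, numpy 2.4.6, scipy 1.17.1, pandas 2.3.3 and matplotlib 3.10.9 were used.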

Additional observations from a re-analysis of the deposited data

Results flagged for a closer look

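The log2 ratio of Pdcd1 between the genotype labels was below 0 in tumor T cells, at -0.26, and above 0 in thymus (1.87) and in spleen (4.69). With 1 library per label and tissue, this sets the 1 pair of tumor libraries against the pair of each other tissue, and it holds for T cells of the tumor only. Over all tumor cells the ratio was 0.42 (0.27 to 0.56), and over tumor cells with Cd8a or Cd8b1 it was 0.10 (-0.05 to 0.25), the same sign as in thymus and spleen. The difference between the tissues was not tested.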

How the results depend on the processing

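No paired analysis was possible because the labels give no replicate numbers and each group has 1 library. No called result changed direction under any alternative. Leaving out thymic cells with Dntt, Rag1 or Ptcra UMIs gave 3 members called in place of 5 and a Pdcd1 ratio of 3.76 (1.24 to 9.09) in place of 1.87, with 1 UMI left in the library labelled Pdcd1fl/fl. With a minimum of 100 UMIs, 4 thymic members were called and Pdcd1lg2 was lost. In spleen, 2 members in place of 1 were called over every deposited barcode (Cd80 added), under the strict filter (Pdcd1lg2 added, lower) and over cells with Cd8a or Cd8b1 (Cd86 added), and the strict filter gave a Pdcd1 ratio of 1.59. In tumor, where 4 members were called, 2 were called over cells with Cd8a or Cd8b1, 2 with a minimum of 100 UMIs and 1 over T cells. The tumor Pdcd1 ratio was 0.10 over cells with Cd8a or Cd8b1 and -0.26 over T cells. For melanoma over T cells under the Pdcd1 cKO label, 8 members in place of 4 were called with higher class limits, and 8 when the T cell rule was waived, an alternative chosen after seeing the data. The cause was not tested. Another 54 values of these main results stayed within their interval or within 1.5 times the count. Of the values for other members and for shares, 140 did so and 39 did not, 22 of the 39 being shares of cells thinned to 500 UMIs. Of the 30 shares compared between the 2 depths, 25 were lower at 500 UMIs than at 1000.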
